A study of Mus musculus with 28 samples.

Results

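Mouse E14 embryonic stem cells that had been without 2iL for 96 h and were then given 2iL again for 24 h (96 h + 2iL) are compared here with cells that had been without 2iL for 96 h (96 h). The comparison uses 8 of the 28 libraries of the series, 4 on each side, picked by the condition in the sample titles. The titles number 4 experiments, and each experiment holds 1 library of each group. 2iL is a mixture of CHIR99021, an inhibitor of the kinase GSK3, PD0325901, an inhibitor of the kinase MEK, and the cytokine LIF. E14 is 1 established line of blastocyst origin, so results apply to that line, and the labels name no genetic change in it. All groups were plated as single cells on gelatin in the basal medium N2B27 with 2iL, which a day later was replaced by N2B27 alone in every group but 2iL. Other groups of the series used beside the comparison are 48 h + 2iL (24 h of 2iL after 48 h without), 2iL (never withdrawn), and 24 h, 48 h and 120 h without 2iL. The 120 h group has the same total time in culture after withdrawal as 96 h + 2iL, so 96 h + 2iL minus 96 h also holds 24 h of further culture. The labels do not say whether the 4 libraries of a group came from separate cultures, so p-values measure the spread between these libraries, which may be partly technical.

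In serum-free medium the 3 agents hold mouse embryonic stem cells in the naive state of the early epiblast. Inhibition of MEK keeps ERK inactive, inhibition of GSK3 stabilises beta-catenin and so turns on WNT target genes, and LIF activates STAT3 through its receptor. Without the agents, cells in N2B27 pass through a formative epiblast state, in which genes such as Fgf5 and Otx2 are on, and then towards neural progenitors. In the embryo, beta-catenin and FGF signals in epiblast that has left the naive state turn on genes of the primitive streak and of the posterior body axis, among them T, Cdx2 and Hox genes.

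Reads were 3′ ends of polyadenylated RNA counted per gene. Libraries of 96 h + 2iL held 1591157 to 2405164 counts in genes and those of 96 h held 2145440 to 2553721, and 13498 to 14697 genes had a count in each library. At these depths 3 counts, the upper limit that a count of 0 allows, correspond to 1.21 to 1.85 CPM (counts scaled to the TMM-adjusted total of the library) in a single library, for counting error only. A single gene, Gm42418, held 14.6% to 18.8% of the gene counts in each of the 8 libraries and is part of these totals. Reads aligned at several places made up 52.3% to 56.7% of the reads listed and were not counted, so genes with close copies, Pou5f1 among them, are undercounted by an unknown amount. The sources do not say whether counting used strand, so reads of a gene and of an antisense partner, as in the Hox clusters, cannot be told apart. The libraries of a group were not alike. On the first principal component of the 8 libraries, which held 42.3% of the variance, 96 h + 2iL lay at 10.3, 16.6, 52.4 and 41.5 in experiments 1 to 4, and 96 h at -45.0, -46.2, 0.90 and -30.4. Of the 96 h libraries, that of experiment 3 lay nearest to 96 h + 2iL, and within 96 h + 2iL experiments 3 and 4 lay apart from 1 and 2. All lists of 4 values below run in that order, experiment 1 to experiment 4.

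Of 11080 genes tested, 616 were higher in 96 h + 2iL (5.56%) and 723 were lower (6.53%), at an adjusted p under 0.05 in edgeR's quasi-likelihood test over all genes with the experiment as a block. That is 1339 genes in either direction, or 12.1%. The shares of 5.56% higher and 6.53% lower are the background for all counts of list members in this comparison. The change was over 4-fold for 96 of the higher genes and 166 of the lower. For 1449 genes (13.1%) the 4 values of one group did not overlap the 4 of the other. The median log2 fold change of all genes tested was -0.00. The count was 1428 without all 7 libraries of experiment 3, 656 without those of experiment 4 and 673 without those of experiment 2. Below, a value given without an experiment leaves out all 7 of its libraries.

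**Figure D1:**
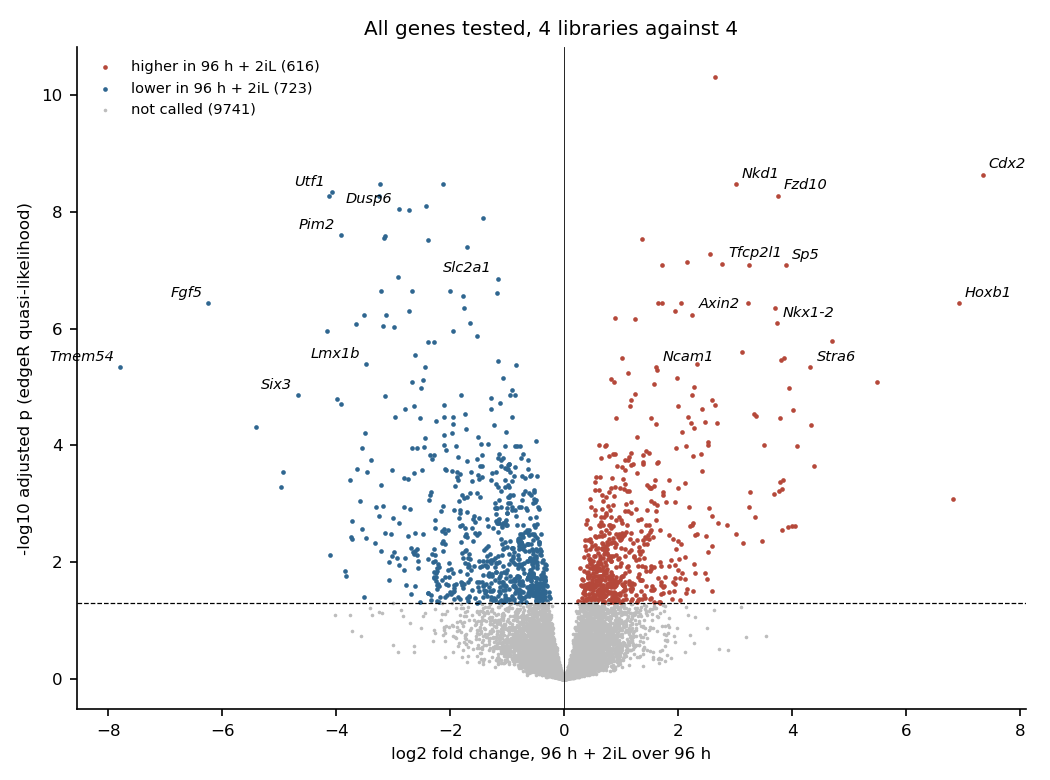
Each point is 1 of 11080 genes tested, with its log2 fold change (96 h + 2iL over 96 h) across and the -log10 of its adjusted p upwards; the dashed line marks an adjusted p of 0.05. Cdx2 stands at 7.34 on the right and Utf1 at -4.08 and Fgf5 at -6.24 on the left.

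Cdx2, Utf1 and Dusp6 show the main directions. Cdx2 (chromosome 5, 147300805 to 147307270, mm10), a caudal-type homeobox factor of the posterior axis and also of trophoblast, had 144, 110, 32.0 and 97.0 CPM in 96 h + 2iL, against 0.457, 0.402, 0.434 and 1.21 CPM at 96 h. It was nearly silent in every 96 h library and present in every 96 h + 2iL library, and its log2 fold change was 7.34 ± 0.64 (SE, adjusted p = 2.31e-09). Utf1 (chromosome 7, 139943789 to 139945112), a chromatin-bound factor of pluripotent cells, had 22.2, 21.8, 6.30 and 6.18 CPM in 96 h + 2iL, against 334, 334, 69.9 and 267 CPM at 96 h. The groups did not overlap, and Utf1 fell by 4.08 ± 0.38 on the log2 scale (adjusted p = 4.62e-09). Dusp6 (chromosome 10, 99263231 to 99267489), a phosphatase that ERK induces and that switches ERK off, had 3.31, 9.04, 8.24 and 3.71 CPM in 96 h + 2iL, against 53, 48.7, 33.9 and 47.6 CPM at 96 h. It fell by 2.90 ± 0.29 on the log2 scale (adjusted p = 8.88e-09), again without overlap. Without experiment 3 the log2 fold changes were 7.50 for Cdx2, -4.19 for Utf1 and -3.14 for Dusp6. These are bulk samples, in which a different number of cells of a type and a different amount of RNA per cell cannot be told apart.

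**Figure D2:**
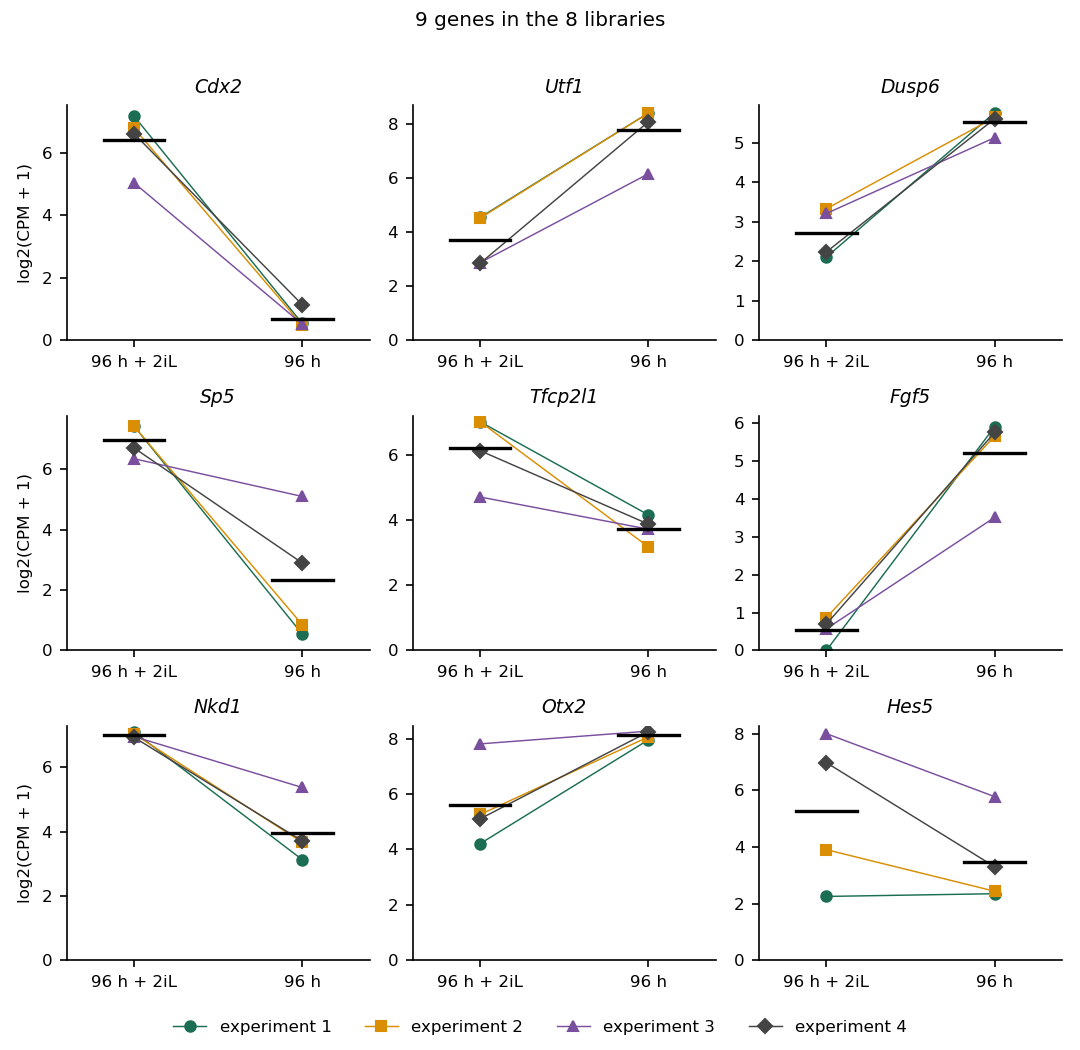
The log2(CPM + 1) of 9 genes in each library of 96 h + 2iL (left in each panel) and 96 h (right); lines join libraries of 1 experiment and black bars are group means (n = 4). Cdx2, Sp5, Tfcp2l1 and Nkd1 are higher in 96 h + 2iL in all 4 experiments, Utf1, Dusp6, Fgf5 and Otx2 are lower, and Hes5 differs most between experiments.

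Most tested targets of WNT and beta-catenin rose. Of 14 members tested, out of 19, 10 were higher in 96 h + 2iL, 1 was lower and 3 were not called, with a median log2 fold change of 2.15. Sp5 (chromosome 2, 70474923 to 70477729), a zinc finger factor that beta-catenin induces directly, had 173, 172, 80.9 and 104 CPM in 96 h + 2iL, against 0.457, 0.805, 33.4 and 6.46 CPM at 96 h. The 96 h library of experiment 3 was the highest of its group, but all 4 lay below 96 h + 2iL (log2 fold change 3.89 ± 0.43, adjusted p = 8.15e-08). Nkd1, an inhibitor in the WNT pathway that the pathway itself induces, had 136, 130, 123 and 121 CPM in 96 h + 2iL, against 7.76, 11.7, 40.4 and 12.1 CPM at 96 h (3.01 ± 0.27, adjusted p = 3.36e-09). Axin2, a scaffold of the beta-catenin destruction complex and a feedback target, had 66.6, 62.4, 51.8 and 63.0 CPM in 96 h + 2iL, against 5.48, 7.65, 32.1 and 12.1 CPM at 96 h (2.25 ± 0.28, adjusted p = 5.76e-07). In all 3 genes the groups did not overlap, and experiment 3 was the highest of 96 h. The secreted deacylase gene Notum rose by 3.24 ± 0.68, the receptor gene Tnfrsf19 by 2.05 ± 0.25, the transcription factor gene Lef1 by 0.80 ± 0.18 and the cyclin gene Ccnd1 by 0.66 ± 0.13 (log2). Fzd7, a WNT receptor gene, was the member that fell, with 9.45, 9.04, 9.69 and 11.7 CPM in 96 h + 2iL, against 53, 54.7, 31.3 and 54.9 CPM at 96 h (-2.28 ± 0.30, adjusted p = 1.71e-06). Another receptor gene, Fzd10, went the other way, with 66.6, 83.8, 56.2 and 71.1 CPM in 96 h + 2iL, against 1.37, 2.01, 12.2 and 5.65 CPM at 96 h (3.74 ± 0.36, adjusted p = 5.27e-09). The ligand gene Wnt6 had 27.9, 33.3, 8.24 and 15.4 CPM in 96 h + 2iL, against 0, 0.805, 2.6 and 1.62 CPM at 96 h (4.09 ± 0.70, adjusted p = 0.000103).

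Promoter sequences are shown for Sp5 and T, WNT targets that hold a match, and for Socs3, a feedback inhibitor that STAT3 induces. They are the 250 bases before the start of each gene in RefSeq, build GRCm38.p6, written in the direction of transcription. Capitals mark matches to CTTTGAA or CTTTGTT, 2 forms of the TCF/LEF site, or to TTCNNNGAA, the STAT site, each searched on both strands. Other forms of the TCF/LEF site were not searched. Unmarked letters can therefore hold such sites, and the TCF/LEF counts and shares below cover these 2 forms alone. Sp5 lies on the plus strand (chr2:70474673-70474922), T on the plus strand (chr17:8434173-8434422) and Socs3 on the minus strand (chr11:117969367-117969616).
Sp5: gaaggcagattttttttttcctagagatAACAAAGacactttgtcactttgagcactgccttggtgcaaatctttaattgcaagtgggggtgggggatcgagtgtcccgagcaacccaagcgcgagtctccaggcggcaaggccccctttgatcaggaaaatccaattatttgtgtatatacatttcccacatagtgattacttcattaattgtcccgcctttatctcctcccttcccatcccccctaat
T: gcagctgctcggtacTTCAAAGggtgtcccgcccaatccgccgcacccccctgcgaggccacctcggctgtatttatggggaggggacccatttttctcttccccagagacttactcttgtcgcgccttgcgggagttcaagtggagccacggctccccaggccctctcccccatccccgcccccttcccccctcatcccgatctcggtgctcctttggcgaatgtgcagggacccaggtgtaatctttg
Socs3: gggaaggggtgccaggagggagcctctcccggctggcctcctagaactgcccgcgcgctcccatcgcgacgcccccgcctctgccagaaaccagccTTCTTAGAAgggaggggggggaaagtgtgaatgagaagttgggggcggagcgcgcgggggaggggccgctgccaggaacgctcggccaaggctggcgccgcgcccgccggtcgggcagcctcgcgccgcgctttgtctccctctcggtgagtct
Sp5 holds AACAAAG at 222 bases before its start and T holds TTCAAAG at 235 bases before, each the reverse strand form of a TCF/LEF match. Socs3 holds TTCTTAGAA at 154 bases before its start. In windows of 300 bases, from 250 before to 50 after the start, 10.6% of 32851 promoters held a TCF/LEF match and 8.3% a STAT match. The 15 genes with the largest rise had 18 promoters in the table, of which 1 held a TCF/LEF match (5.56%). Some genes had more than 1 promoter, Stra6 and Nfam1 among the rises and Tmem54 among the falls. All shares given here are therefore of promoters and not of genes. Among the promoters of the WNT and beta-catenin targets it was 4 of 19 (21.1%), and among those of the posterior homeobox genes 1 of 15 (6.67%). Axin2 held 0 matches. A STAT match was held by 0 of the 18 promoters of the largest rises and 1 of 13 of the largest falls (7.69%). Among the WNT and beta-catenin targets 2 of 19 held a STAT match (10.5%), and among posterior homeobox genes 1 of 15 (6.67%). A match is a description of the letters in the window and not evidence of a bound site.

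Posterior homeobox genes were among the largest rises. Only 9 of the 25 members of this list had enough counts to be tested, and several of these passed through the 96 h + 2iL libraries in which they were high, so their count (9 higher, 0 lower, median log2 fold change 4.0) is a description only. Hoxb1 (chromosome 11, 96365752 to 96368256), a gene of the 3′ end of the Hoxb cluster, had 11.3, 23.4, 13.6 and 91.5 CPM in 96 h + 2iL, against 0, 0, 0.434 and 0.404 CPM at 96 h. Pooled over libraries this made 257 counts in 96 h + 2iL and 2 at 96 h (ratio 148, with a 95% interval of 40.4 to 1230 for counting error only). For Hoxb8 the pooled counts were 96 in 96 h + 2iL and 2 at 96 h (ratio 55.1, 95% interval 14.8 to 462). Hoxb4 had 15.6, 21.8, 5.81 and 26 CPM in 96 h + 2iL, against 2.74, 0, 0 and 0.404 CPM at 96 h (log2 fold change 4.38 ± 0.80, adjusted p = 0.000225). Hoxc4 (3.68 ± 0.74) and the caudal gene Cdx1 (3.83 ± 0.75) rose as well, whereas Cdx4 had 8 counts in 96 h + 2iL and 0 at 96 h and was not tested. The calls of Hoxb9 and Evx1 each rested on single experiments or libraries. Hoxb9 was at 2.53 ± 0.64 and at 1.92 (adjusted p = 0.0753) without the 96 h + 2iL library of experiment 2. Evx1, a homeobox gene of the posterior streak, was at 4.0 ± 0.90, and at 3.59 (adjusted p = 0.0655) without experiment 1 and 2.80 (adjusted p = 0.0612) without experiment 2.

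Genes of the primitive streak and of axial progenitors rose with them, unevenly between experiments. Of 8 streak and mesendoderm genes tested, out of 19, 5 were higher, 0 lower and 3 not called, with a median log2 fold change of 3.01. Over all genes tested 5.56% were higher. Some members may have passed the filter through libraries in which they were high (Fgf8 had 119 pooled counts in 96 h + 2iL and 2 in 2iL). The count and median are therefore a description only. T (chromosome 17, 8434423 to 8442496), the T-box factor of the streak and a beta-catenin target, had 87.0, 117, 3.88 and 13 CPM in 96 h + 2iL, against 2.74, 0.402, 2.6 and 5.25 CPM at 96 h. Experiments 1 and 2 were far above 96 h and experiment 3 lay within the 96 h range (4.32 ± 0.70, adjusted p = 4.45e-05). Nkx1-2, a homeobox gene of axial progenitors, had 110, 130, 19.4 and 69.2 CPM in 96 h + 2iL, against 2.28, 2.41, 13 and 8.08 CPM at 96 h (3.73 ± 0.47, adjusted p = 8.13e-07). Lefty1, an antagonist of NODAL, had 128, 117, 10.7 and 30.9 CPM in 96 h + 2iL, against 5.02, 6.84, 1.30 and 4.85 CPM at 96 h (3.85 ± 0.53, adjusted p = 3.19e-06). Its paralog Lefty2 was at 2.06 ± 0.50 and the ligand gene Wnt3 at 2.49 ± 0.58, and both lost the call without experiment 1 (adjusted p = 0.0512 and 0.0702) or experiment 2 (0.0935 and 0.108). Fgf8, a growth factor gene of the streak and of neural boundaries, was higher in experiments 3 and 4, with 7.56, 6.16, 29.6 and 16.7 CPM in 96 h + 2iL, against 0.457, 0, 3.04 and 0.808 CPM at 96 h (3.95 ± 0.56, adjusted p = 1.06e-05). Eomes, a T-box gene of mesendoderm, was not called (-1.54 ± 0.62, adjusted p = 0.104). Mixl1, Gsc, Tbx6 and Mesp1 had too few counts to be tested.

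Part of the naive network rose. Of 18 naive pluripotency genes, 7 were higher in 96 h + 2iL, 0 were lower and 11 were not called, with a median log2 fold change of 1.16. Tfcp2l1 (chromosome 1, 118627945 to 118685168), a STAT3 target that maintains the naive state, had 129, 129, 25.2 and 69.2 CPM in 96 h + 2iL, against 16.9, 8.05, 12.2 and 13.7 CPM at 96 h. All 4 libraries were above the 96 h range (2.78 ± 0.31, adjusted p = 7.74e-08). Nanog, a homeobox factor of the network, had 57.2, 53.8, 6.30 and 21.6 CPM in 96 h + 2iL, against 12.8, 10.5, 5.64 and 12.1 CPM at 96 h (1.73 ± 0.34, adjusted p = 0.00062). The nuclear receptor gene Esrrb had 60.5, 50.5, 7.75 and 24.7 CPM in 96 h + 2iL, against 13.2, 12.5, 3.47 and 7.27 CPM at 96 h (1.96 ± 0.34, adjusted p = 0.000112). In Nanog and Esrrb the 96 h + 2iL library of experiment 3 lay within the 96 h range, and experiments 1 and 2 were highest. Gbx2, a homeobox gene induced by LIF, was more even, with 37.8, 22.6, 20.8 and 35.8 CPM in 96 h + 2iL, against 7.76, 3.62, 7.38 and 5.65 CPM at 96 h (2.28 ± 0.33, adjusted p = 9.89e-06). Nr5a2 rose by 2.48 ± 0.40, Klf2 by 1.65 ± 0.30 and Klf4 by 1.5 ± 0.29, the last with an adjusted p of 0.0665 without experiment 2. Tbx3 (1.01 ± 0.35, adjusted p = 0.0556) and Zfp42 (0.56 ± 0.32, adjusted p = 0.28) were not called, and both were called without the 96 h + 2iL library of experiment 3 (adjusted p = 0.00281 and 0.0118).

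The LIF and STAT3 list overlaps the naive one in Tfcp2l1, Gbx2, Klf4 and Klf5. Of 17 members tested, 7 were higher, 1 was lower and 9 were not called, with a median log2 fold change of 0.59. Stat3 itself had 70.9, 63.7, 55.7 and 53.1 CPM in 96 h + 2iL, against 31.1, 32.6, 18.7 and 29.5 CPM at 96 h, without overlap (1.13 ± 0.20, adjusted p = 0.000155). Bcl3, a co-factor of NF-kappa-B and a STAT3 target, had 24.1, 24.2, 5.33 and 10.5 CPM in 96 h + 2iL, against 5.94, 3.62, 0.868 and 1.62 CPM at 96 h (2.42 ± 0.37, adjusted p = 2.39e-05). Socs3, whose promoter is printed above, was at 13.6 ± 5.03 CPM in 96 h + 2iL and 6.82 ± 2.10 CPM at 96 h (SD, n = 4 each; 1.04 ± 0.35, adjusted p = 0.0447). Its call and that of the kinase gene Pim1 (0.84 ± 0.24) were lost without some single libraries (adjusted p up to 0.159 and 0.0904). Socs2, another feedback inhibitor of cytokine receptors, fell by 1.29 ± 0.19, and the LIF receptor gene Lifr was not called (-0.34 ± 0.27). The count of 7 was 4 without experiment 2.

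Most genes of the formative and primed epiblast fell. Of 20 tested, 15 were lower in 96 h + 2iL, 0 were higher and 5 were not called, with a median log2 fold change of -1.17. The growth factor gene Fgf5 (chromosome 5, 98254184 to 98277030) had 0, 0.821, 0.485 and 0.618 CPM in 96 h + 2iL, against 58.9, 49.5, 10.4 and 52.9 CPM at 96 h. It was nearly silent in every 96 h + 2iL library, with 4 counts against 407 (-6.24 ± 0.75, adjusted p = 3.64e-07). The POU factor gene Pou3f1 had 14.7, 21.4, 112 and 53.8 CPM in 96 h + 2iL, against 408, 499, 259 and 529 CPM at 96 h (-3.12 ± 0.39, adjusted p = 5.76e-07). Otx2, a homeobox factor of the epiblast and the anterior brain, had 17.5, 37.4, 223 and 33.4 CPM in 96 h + 2iL, against 247, 266, 307 and 302 CPM at 96 h. The 96 h + 2iL library of experiment 3 was close to the 96 h range and the other 3 far below it (-2.10 ± 0.32, adjusted p = 2.03e-05). The kinase gene Pim2 had 24.6, 22.2, 10.7 and 9.27 CPM in 96 h + 2iL, against 251, 297, 137 and 347 CPM at 96 h (-3.91 ± 0.41, adjusted p = 2.50e-08). Foxd3 (-3.63 ± 0.67), Tcf7l1 (-1.12 ± 0.20) and Zic2 (-1.0 ± 0.22) fell. Sox3 was at -0.64 ± 0.18 and lost its call without some single libraries (adjusted p up to 0.0959).

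The de novo DNA methyltransferases were part of that change. Dnmt3b had 133, 119, 73.7 and 126 CPM in 96 h + 2iL, against 1250, 1300, 476 and 1310 CPM at 96 h (-3.24 ± 0.31, adjusted p = 5.27e-09). Dnmt3a fell by 1.23 ± 0.20 and their co-factor gene Dnmt3l by 1.95 ± 0.31. Of 8 genes of the DNA methylation machinery tested these 3 were lower, 1 was higher (Dnmt1, the maintenance enzyme, at 0.28 ± 0.10, adjusted p = 0.0473, and up to 0.133 without single libraries) and 4 were not called, with a median of -0.09. Of 3 germline genes repressed by DNA methylation that were tested, out of 12, 1 was lower and 0 were higher, with a median of -1.14. It was the synaptonemal complex gene Sycp3 (-1.75 ± 0.52), which lost its call without some single libraries (adjusted p up to 0.165).

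General pluripotency genes were lower or not called. Of 12 tested, 0 were higher in 96 h + 2iL, 7 were lower and 5 were not called, with a median log2 fold change of -0.58. Besides Utf1, the RNA-binding protein gene L1td1 had 179, 162, 27.1 and 42.6 CPM in 96 h + 2iL, against 657, 580, 129 and 381 CPM at 96 h (-2.11 ± 0.35, adjusted p = 6.61e-05). Pou5f1, the POU factor of pluripotent cells, had 9.92, 12.7, 1.45 and 4.33 CPM in 96 h + 2iL, against 21.9, 24.6, 6.95 and 21.4 CPM at 96 h (-1.38 ± 0.34, adjusted p = 0.00575, and 0.123 without experiment 4). It was lower in 96 h + 2iL in each experiment, and its counts exclude reads that its pseudogenes share. Dppa4 fell by 1.62 ± 0.31 on the log2 scale. Sall4 was at -0.59 ± 0.13, and its call was lost without experiment 4 (adjusted p = 0.0781). Sox2, shared by pluripotent and neural cells, had 296, 359, 391 and 394 CPM in 96 h + 2iL, against 324, 299, 353 and 356 CPM at 96 h, and was not called (0.11 ± 0.11, adjusted p = 0.603).

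Targets of MEK and ERK were lower or not called. Of 16 tested, out of 20, 9 were lower, 0 were higher and 7 were not called, with a median log2 fold change of -1.17. Dusp4, a nuclear phosphatase of ERK, had 8.51, 5.34, 9.21 and 11.1 CPM in 96 h + 2iL, against 90.4, 82.9, 23 and 74.3 CPM at 96 h (-2.92 ± 0.33, adjusted p = 1.32e-07). The ETS factor gene Etv4 had 3.31, 4.52, 8.72 and 3.09 CPM in 96 h + 2iL, against 52.5, 47.9, 21.3 and 42.0 CPM at 96 h (-2.98 ± 0.38, adjusted p = 9.27e-07). Neither gene overlapped between the groups. Etv5, of the same ETS subfamily, was at -1.16 ± 0.27 (adjusted p = 0.00304, and 0.0597 without experiment 4). Dusp5 was at -1.36 ± 0.35 (adjusted p = 0.00797, and 0.0615 without experiment 2). Egr1 (-2.23 ± 0.67), Etv1 (-1.65 ± 0.43), Spry4 (-2.26 ± 0.58) and Spred3 (-1.17 ± 0.31) each lost the call without at least 1 single library, with adjusted p up to 0.0998, 0.0659, 0.0621 and 0.0949. The count of 9 was 5 without experiment 1 and 4 without experiment 4. Spry2, a feedback inhibitor upstream of ERK, was not called (-0.52 ± 0.19, adjusted p = 0.0673), and was called without the 96 h library of experiment 3 (adjusted p = 0.0067).

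Other large falls held genes of several kinds. Tmem54, a membrane protein gene, had 0 counts in all 4 libraries of 96 h + 2iL and 13.7, 16.1, 4.34 and 13.7 CPM at 96 h, so it was at least 32.8-fold lower (taken at 3 counts over the group). Eras, a RAS gene of embryonic stem cells, had 1.89, 1.64, 0.485 and 0.618 CPM in 96 h + 2iL, against 19.6, 18.5, 17.8 and 32.3 CPM at 96 h (-4.16 ± 0.54, adjusted p = 1.10e-06). The ectoenzyme gene Enpp3 fell by 4.13 ± 0.39, the carbonic anhydrase gene Car4 by 3.50 ± 0.44 and the homeobox gene Lmx1b, of the midbrain and roof plate, by 3.47 ± 0.48 on the log2 scale. Foxd4, a forkhead gene of early neural ectoderm, had 2 pooled counts in 96 h + 2iL and 125 at 96 h (54.4 times fewer, with a 95% interval of 14.8 to 454). Psors1c2, Ttbk1, Doc2a, Fam57b and Myrf completed the 15 largest falls, with log2 fold changes from -3.91 to -3.49. Among the 15 largest rises that have not been described, the retinol transporter gene Stra6 had 46.8, 35.3, 27.1 and 48.2 CPM in 96 h + 2iL, against 1.37, 0.805, 6.95 and 0.404 CPM at 96 h (4.32 ± 0.59, adjusted p = 4.57e-06). The protease inhibitor gene Wfikkn1 rose by 4.70 ± 0.62, Nfam1 by 4.02 ± 0.62 and Msx3, a homeobox gene of the dorsal neural tube, by 3.78 ± 0.57.

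**Figure D3:**
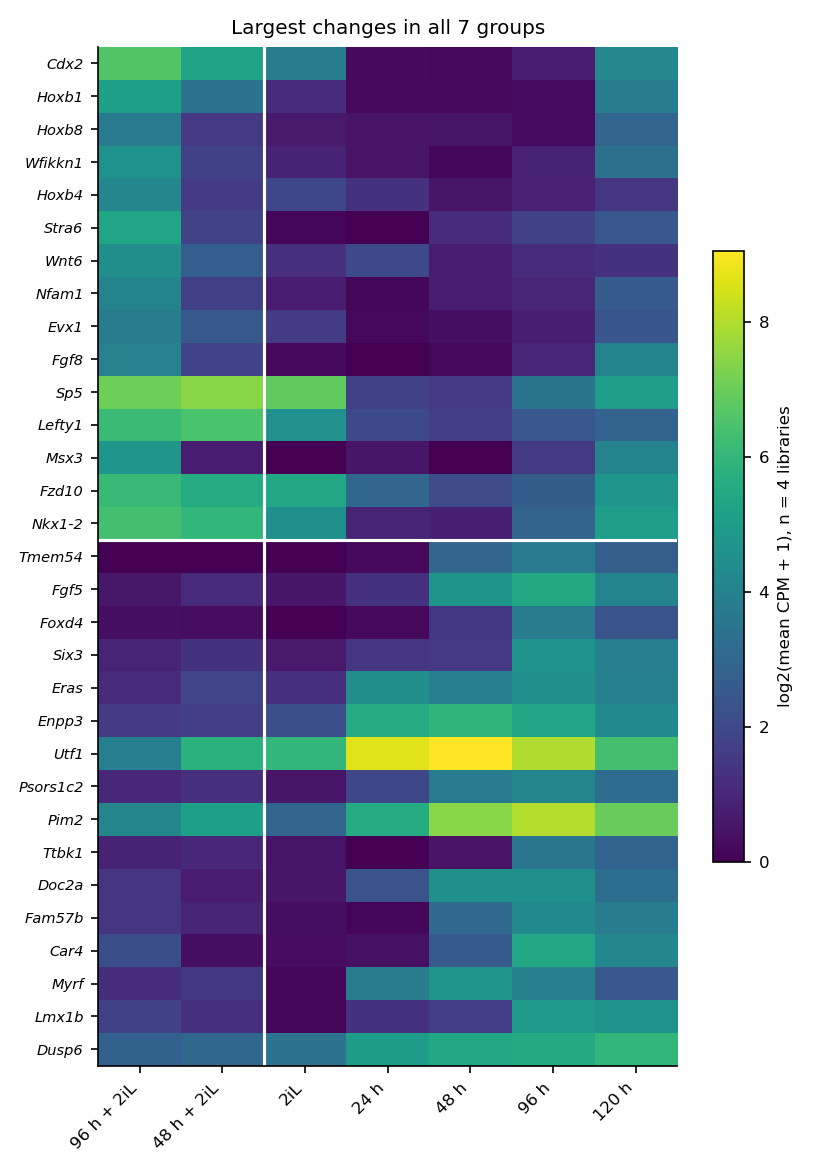
Mean level, as log2(mean CPM + 1) over 4 libraries, of the 15 genes with the largest rise (top block), the 15 with the largest fall and Dusp6 (bottom block) in the 7 groups of the series; columns give the 2 re-induced groups, then 2iL and the withdrawn groups in order of time. Cdx2 averaged 95.6 CPM in 96 h + 2iL, above 37.3 CPM in 48 h + 2iL and 13.3 CPM in 2iL, and Utf1 was highest at 48 h, at 532 CPM.

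Neural genes did not move one way. Of 16 neural progenitor genes tested, 5 were higher in 96 h + 2iL, 1 was lower and 10 were not called, with a median log2 fold change of 0.61. Zic1, a zinc finger factor of the dorsal neural tube, had 4.73, 21.8, 59.1 and 20.4 CPM in 96 h + 2iL, against 0.913, 0, 6.51 and 0.808 CPM at 96 h (3.80 ± 0.51, adjusted p = 3.40e-06). The POU factor gene Pou3f2 had 12.8, 24.2, 158 and 80.9 CPM in 96 h + 2iL, against 8.22, 2.41, 25.6 and 4.04 CPM at 96 h (2.65 ± 0.40, adjusted p = 2.03e-05). Sox1, a SOX factor of the early neural plate, had 80.3, 109, 206 and 192 CPM in 96 h + 2iL, against 22.8, 23.7, 134 and 47.2 CPM at 96 h (1.49 ± 0.33, adjusted p = 0.00227). Each of these 3 genes was higher in 96 h + 2iL in every experiment, with experiment 3 highest in both groups. Hes5, a repressor that Notch induces, had 3.78, 14, 255 and 125 CPM in 96 h + 2iL, against 4.11, 4.43, 53.8 and 8.88 CPM at 96 h (2.26 ± 0.40, adjusted p = 0.00015), and experiment 1 showed no rise. With DESeq2 the calls of Hes5 and Sox1 were lost (adjusted p = 0.1 and 0.0973), and that of Sox1 was lost without experiment 4 as well (adjusted p = 0.073). Pou3f3 was at 2.85 ± 0.64, and at 2.04 (adjusted p = 0.0799) without the 96 h + 2iL library of experiment 3. The member that fell was Six3, a homeobox factor of the forebrain and eye field, with 0.945, 0, 1.45 and 1.24 CPM in 96 h + 2iL, against 14.6, 21.7, 40.8 and 17.4 CPM at 96 h (-4.66 ± 0.70, adjusted p = 1.38e-05). Pax6 was not called (-0.73 ± 0.59, adjusted p = 0.477).

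Neural crest and Notch genes had calls in both directions, anterior neural plate and neuron genes lower calls alone, and BMP pathway genes higher calls alone. These directions rest on few calls and are a description only. Among all genes tested 5.56% were higher in 96 h + 2iL and 6.53% lower. Over the 19 alternatives run, anterior neural plate genes lower were 1 to 4, neuron genes higher 0 to 2 and lower 1 to 4, neural crest genes lower 1 to 2, Notch genes higher 1 to 3 and lower 0 to 1, and BMP genes higher 1 to 3. Of 6 anterior neural plate genes tested, out of 12, 0 were higher, 2 were lower and 4 were not called, with a median of -1.99. They were Six3 and Lhx5 (-2.34 ± 0.77), and Lhx5 was at -1.18 (adjusted p = 0.418) without the 96 h library of experiment 3. Of 7 neural crest and dorsal neural genes tested 3 were higher and 2 lower, with a median of 0.98. The rises were Zic1, Pax3 (3.26 ± 0.65) and Msx1, a homeobox gene that BMP induces, which had 15.6, 15.2, 32.9 and 45.7 CPM in 96 h + 2iL, against 0.913, 2.01, 9.55 and 1.21 CPM at 96 h (3.13 ± 0.42, adjusted p = 2.53e-06). Sox9, a SOX factor of neural crest and glia, fell, with 6.62, 5.34, 18.9 and 11.1 CPM in 96 h + 2iL, against 25.1, 37.4, 93.8 and 67.0 CPM at 96 h (-2.38 ± 0.31, adjusted p = 1.71e-06). The ligand gene Wnt1 had 3 counts in 96 h + 2iL and 71 at 96 h, most of them in experiment 3, and its fitted change lost the call without that 96 h library (adjusted p = 0.087). Of 11 neuron genes tested 0 were higher and 3 lower, with a median of -0.26. Crmp1 (-1.45 ± 0.27), a cytoskeletal protein gene, and the neurofilament gene Ina (-0.75 ± 0.19, adjusted p = 0.00564, and 0.0535 without experiment 2) were among them. Elavl3 (-1.33 ± 0.38) lost its call without some single libraries (adjusted p up to 0.114). Of 13 Notch pathway genes 2 were higher, Hes5 and Nrarp (1.94 ± 0.52, and 1.32 with adjusted p = 0.138 without the 96 h + 2iL library of experiment 3), and 1 was lower, Hes6 (-0.81 ± 0.19, and -0.58 with adjusted p = 0.0614 without the 96 h library of experiment 2), with a median of 0.08. Of 8 genes of the BMP pathway 2 were higher, Msx1 and Bmp7 (1.32 ± 0.39, adjusted p up to 0.0876 without single libraries), and 0 were lower, with a median of 0.21.

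Adhesion genes changed in opposite directions. Of 16 tested in the cell adhesion switch list 7 were higher, 4 were lower and 5 were not called, with a median log2 fold change of 0.02. The neural adhesion gene Ncam1 averaged 194 ± 48.2 CPM in 96 h + 2iL and 65.6 ± 28.3 CPM at 96 h (SD, n = 4 each), and its groups did not overlap (1.62 ± 0.23, adjusted p = 4.57e-06). Cdh2, which encodes N-cadherin, had 31.7, 55.4, 97.9 and 88.4 CPM in 96 h + 2iL, against 16.9, 14.5, 53.8 and 30.7 CPM at 96 h (1.28 ± 0.24, adjusted p = 0.000299). The zinc finger repressor gene Zeb1 (1.49 ± 0.29) and the intermediate filament gene Vim (0.79 ± 0.14) rose. Epcam, an epithelial adhesion gene, had 77.5, 59.1, 6.30 and 24.7 CPM in 96 h + 2iL, against 164, 154, 50.8 and 135 CPM at 96 h (-1.65 ± 0.33, adjusted p = 0.000643). The tight junction gene Cldn7 fell by 2.44 ± 0.41. Cdh1, which encodes E-cadherin, had 550, 600, 46.0 and 182 CPM in 96 h + 2iL, against 900, 1130, 365 and 772 CPM at 96 h. It was at -1.32 ± 0.38 (adjusted p = 0.0175), and at -0.95 (adjusted p = 0.0528) without the 96 h + 2iL library of experiment 3. Its adjusted p was up to 0.0774 without other single libraries, 0.219 without experiment 4 and 0.0901 without the experiment block. Cdh11 (1.36 ± 0.37) and Fn1 (0.71 ± 0.19) were also lost without some single libraries (adjusted p up to 0.0722 and 0.0609).

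**Figure D4:**
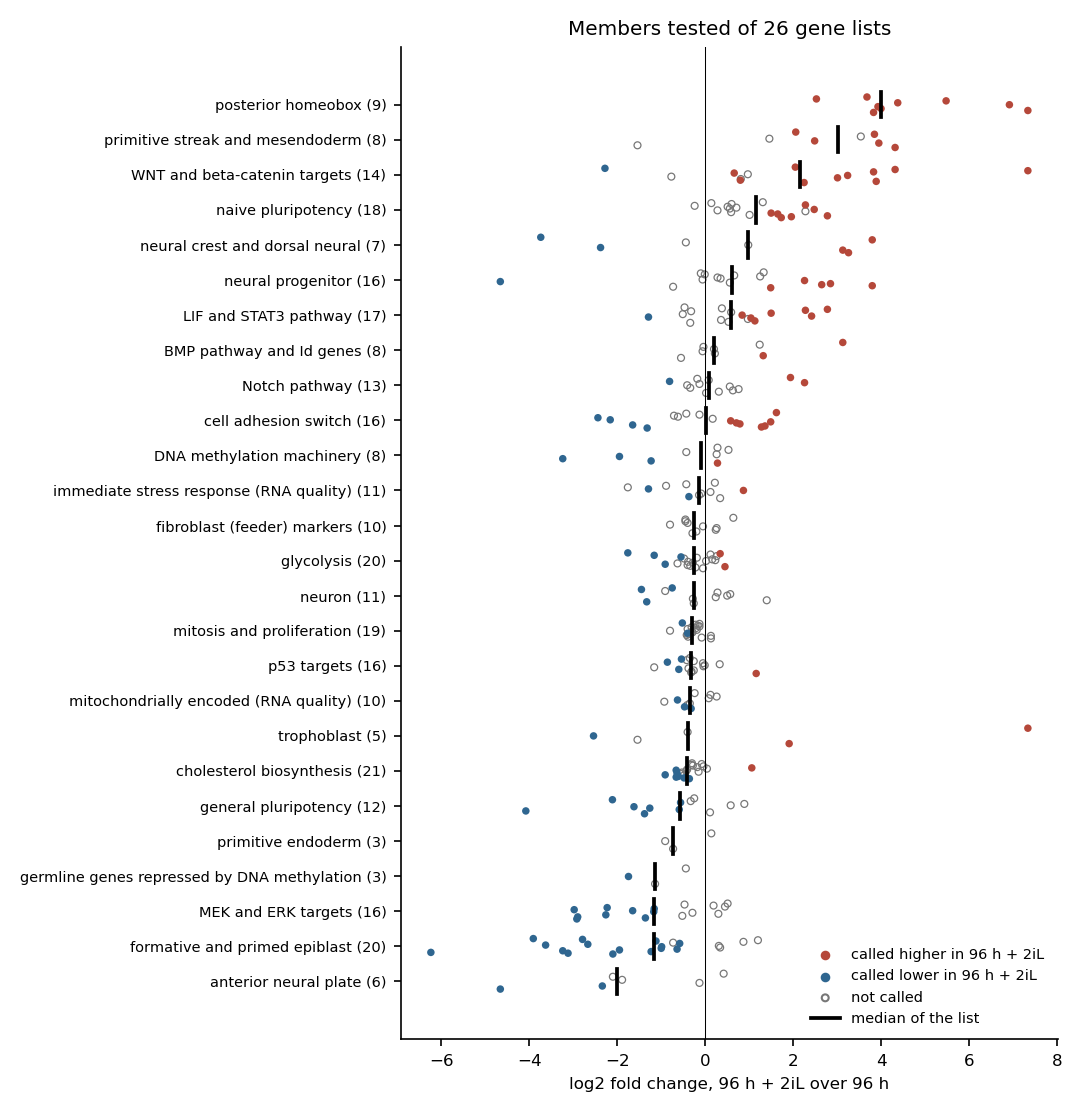
Log2 fold change (96 h + 2iL over 96 h) of each tested member of 26 gene lists, with the number tested in brackets; filled points are called at an adjusted p under 0.05, open points are not, and black bars are list medians. Medians run from 4.0 for posterior homeobox genes to -1.99 for anterior neural plate genes, against -0.00 for all genes tested.

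Of the markers of other cell types, primitive endoderm and fibroblast genes had no calls in the fit of all libraries and trophoblast genes had calls in both directions. Of 3 primitive endoderm genes tested, out of 12, 0 passed the test in edgeR, DESeq2 or limma-voom and 0 had an unadjusted p under 0.05 in edgeR, with a median of -0.73. Gata4, Gata6 and Sox17 had 4, 2 and 2 counts in 96 h + 2iL, and 3, 4 and 5 counts at 96 h. Of 5 trophoblast genes tested, out of 11, 2 were higher (Cdx2, and Tfap2c, which had an adjusted p of 0.0515 without experiment 4), 1 was lower (Ascl2, lost without some single libraries, adjusted p up to 0.25) and the median was -0.40. The summed level of the trophoblast list was 48 to 205 CPM in 96 h + 2iL and 11.7 to 42 CPM at 96 h, Cdx2 included. Elf5, a defining trophoblast gene, had 0 counts in all 8 libraries, and Hand1 had 1 count in each group. Of 10 fibroblast markers tested 0 passed the test in edgeR, DESeq2 or limma-voom, 2 had an unadjusted p under 0.05 in edgeR, their median was -0.24, and their summed level was 138 to 345 CPM in 96 h + 2iL and 195 to 379 CPM at 96 h. Among lists that track RNA quality, 3 of 10 mitochondrially encoded genes were lower in 96 h + 2iL and 0 higher (median -0.33). The number lower was 7 with the 8 libraries alone or with no filter, 1 without either the 96 h library of experiment 1 or the 96 h + 2iL library of experiment 4, and 0 without experiment 4. The mitochondrial share of counts was 1.37% ± 0.13 in 96 h + 2iL and 1.78% ± 0.14 at 96 h (SD, n = 4 each; two-sided exact permutation p = 0.0286, the smallest that 4 against 4 can give). Of 11 immediate stress response genes tested 1 was higher (Asns, 0.87 ± 0.18) and 2 were lower (0 to 3 over the alternatives), with a median of -0.14. Among all genes tested 5.56% were higher and 6.53% lower, so calls this few are a description only. What part the lower mitochondrial share has in the other results was not tested.

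The 120 h group serves as the time-matched withdrawn culture. Against it, 192 genes were higher in 96 h + 2iL (1.73% of those tested) and 219 lower (1.98%), 3.71% in either direction. Both comparisons use the same 96 h + 2iL libraries. Cdx2, at 18 ± 13.4 CPM at 120 h (SD, n = 4), was higher in 96 h + 2iL by 2.74 ± 0.43 (adjusted p = 8.28e-05), and Sp5, at 31.7 ± 9.45 CPM at 120 h, by 2.17 ± 0.37 (adjusted p = 0.000313). Dusp6, at 62.7 ± 24.6 CPM at 120 h, had in 96 h + 2iL a log2 fold change of -3.30 ± 0.28 (adjusted p = 2.53e-09), and Utf1, at 81.9 ± 68.6 CPM at 120 h, one of -2.37 ± 0.40 (adjusted p = 0.000222). Of 18 naive genes 11 were higher and 0 lower than at 120 h (median log2 fold change 1.85), with Tfcp2l1 at 3.27 ± 0.32, Klf2 at 3.03 ± 0.34 and Nanog at 1.20 ± 0.33. Of 16 MEK and ERK targets 9 were lower and 0 higher (median -1.26), and of 20 formative genes 7 were lower and 0 higher (median -0.71). Of 14 WNT targets 4 were higher and 1 was lower (median 0.95). Posterior homeobox genes had 2 of 9 tested higher and 0 lower (median 1.59), and streak genes 2 of 8 higher and 1 lower (median 0.83). General pluripotency genes had 2 of 12 higher and 1 lower (median -0.19). DNA methylation genes had 0 of 8 higher and 1 lower (median 0), and cholesterol biosynthesis genes 1 of 21 higher and 1 lower (median -0.32). T (1.35 ± 0.55, adjusted p = 0.206), Hoxb1 (1.43, adjusted p = 0.111) and Evx1 (1.55, adjusted p = 0.327) were not called against 120 h, when T averaged 22.3 ± 15.8 CPM and Hoxb1 12.8 ± 10.8 CPM. Of 16 neural progenitor genes 0 were higher in edgeR, by adjusted or unadjusted p, and 2 were lower (median -0.39), and Sox1, at 153 ± 46.3 CPM at 120 h, was at -0.09 ± 0.31 (adjusted p = 0.933).

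The 2iL group shows how far the cells stood from those never withdrawn. Against it, 2483 genes were higher in 96 h + 2iL (22.4%) and 2315 lower (20.9%), 43.3% in either direction. Of 18 naive genes 17 were lower than in 2iL and 1, Gbx2, was higher, with a median log2 fold change of -2.66. Tfcp2l1 averaged 88.3 ± 50.8 CPM in 96 h + 2iL and 548 ± 68.1 CPM in 2iL (-2.68 ± 0.25, adjusted p = 1.04e-10), and Nanog averaged 34.7 ± 24.8 CPM in 96 h + 2iL and 147 ± 23 CPM in 2iL (-2.14 ± 0.28, adjusted p = 1.87e-07). Of 17 LIF and STAT3 genes 12 were lower and 1 higher (median -1.23). Sp5 and Axin2 were not called (0.31 ± 0.34 and 0.37 ± 0.25, adjusted p = 0.485 and 0.235), at 133 ± 47.3 and 61.0 ± 6.37 CPM in 96 h + 2iL, and 114 ± 18.3 and 49.4 ± 14.3 CPM in 2iL. Dusp6 was not called either (-0.68 ± 0.33, adjusted p = 0.0938), at 6.07 ± 2.98 CPM in 96 h + 2iL and 10 ± 2.51 CPM in 2iL. These single genes do not stand for their lists. Of 14 WNT targets 6 were higher than in 2iL, 1 was lower and 7 were not called (median 0.52). Of 16 MEK and ERK targets 5 were higher, 5 lower and 6 not called (median -0.21). Of 20 formative genes 11 were higher, 5 lower and 4 not called (median 1.32). Cdx2 stood above 2iL by 3.06 ± 0.43 (adjusted p = 5.10e-07) and Nkd1 by 5.92 ± 0.36 (adjusted p = 6.15e-15), with 128 ± 6.82 CPM in 96 h + 2iL and 2.19 ± 0.913 CPM in 2iL. Of 16 neural progenitor genes 13 were higher than in 2iL and 1 was lower (median 4.70).

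Whether the response to 2iL after 96 h differed from that after 48 h was tested as an interaction. The response after 96 h was more positive for 101 genes (0.912% of those tested) and more negative for 93 (0.839%), 1.75% in either direction, and 102 genes were called without the experiment block. In edgeR 0 of 18 naive genes were called and 3 had an unadjusted p under 0.05, with a median difference of -0.47. For 9 posterior homeobox genes these values were 0, 2 and 1.11, for 8 streak genes 0, 2 and -1.67, and for 16 MEK and ERK targets 0, 3 and 0.08. Of 14 WNT targets 1 was called, Lef1 (1.17, adjusted p = 0.0111), and the median was -0.04. A missed threshold here does not show that the responses were alike. Cdx2 responded by 7.34 ± 0.64 after 96 h and by 7.45 ± 0.90 after 48 h, a difference of -0.11 (adjusted p = 0.961). Of 20 formative genes 4 were called, Otx2, Pou3f1, Sox3 and Dnmt3a, all with the weaker fall after 96 h. Otx2 fell by 2.10 ± 0.32 after 96 h and by 5.54 ± 0.42 after 48 h, a difference of 3.44 ± 0.53 (adjusted p = 0.0003), and it kept that call without any single library. Sall2, a zinc finger gene, was not called after 96 h (-0.54 ± 0.26) and was at -3.43 ± 0.35 after 48 h (difference 2.89 ± 0.45, adjusted p = 0.0003).

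Several further genes differed between the responses. Dll1, a Notch ligand gene, had 5.67, 1.23, 24.2 and 26.6 CPM in 96 h + 2iL, against 10, 3.62, 11.3 and 5.25 CPM at 96 h. It was at 0.76 ± 0.53 after 96 h and at -3.33 ± 0.71 after 48 h (difference 4.09 ± 0.89, adjusted p = 0.0111, and up to 0.153 without experiment 3 or 4). Sparcl1, a matricellular protein gene, had 28.8, 18.1, 26.2 and 62.4 CPM in 96 h + 2iL, against 4.11, 1.21, 2.6 and 2.02 CPM at 96 h (difference 3.99 ± 0.77, adjusted p = 0.00379, and 0.0518 without the 48 h library of experiment 1). The call of the Sparcl1 difference was lost in 2 of 26 alternatives run, with an adjusted p up to 0.104. Cldn3, a tight junction gene, had 7.56, 2.87, 0.969 and 0.618 CPM in 96 h + 2iL, against 12.3, 10.5, 11.7 and 18.2 CPM at 96 h, and was at -2.16 ± 0.46 after 96 h and 2.15 ± 0.62 after 48 h (difference -4.31 ± 0.77, adjusted p = 0.00149, and 0.0559 without experiment 4). Crabp1, a retinoic acid binding protein gene, had 22.2, 14.8, 229 and 457 CPM in 96 h + 2iL, against 23.3, 20.5, 53.8 and 38.4 CPM at 96 h. Its rise after 96 h lay in experiments 3 and 4, and both its response (2.00 ± 0.48) and the difference (3.12 ± 0.76, adjusted p = 0.0231) lost the call without the 96 h + 2iL library of experiment 4 (0.96 and 2.05, adjusted p = 0.155 and 0.112). Of the 20 genes named by the size of this difference, 9 kept the call without any single library.

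**Figure D5:**
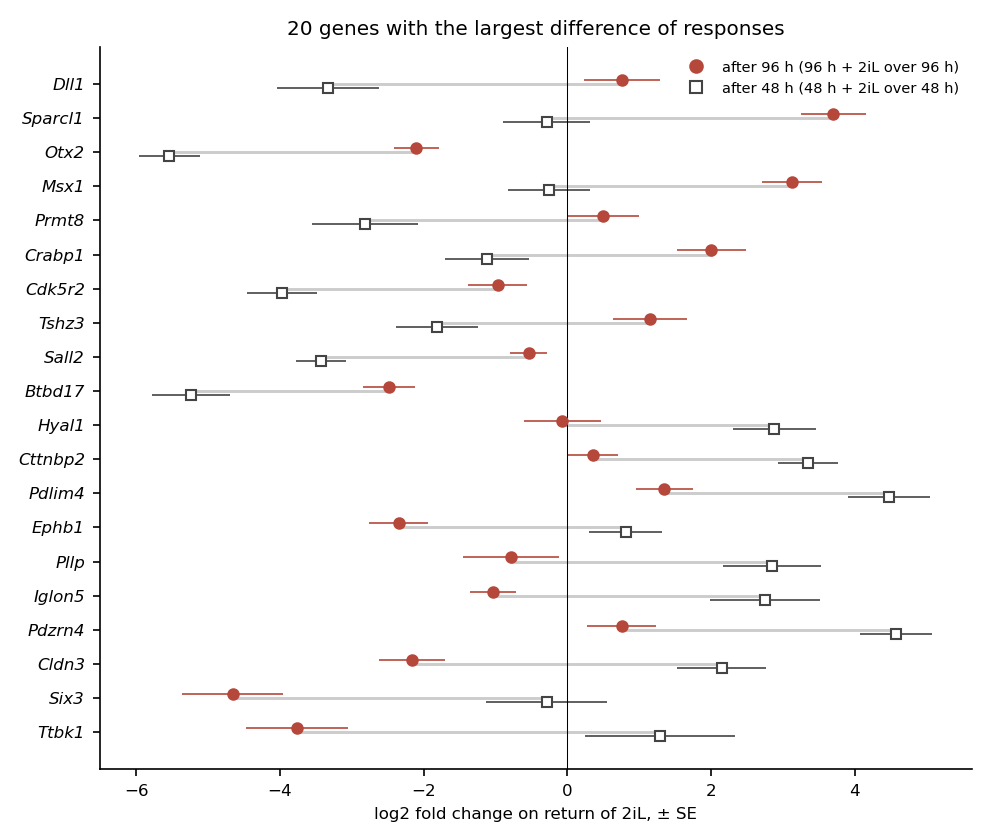
Log2 fold change (± SE) on return of 2iL after 96 h (filled circles) and after 48 h (open squares) for the 10 genes with the largest positive and the 10 with the largest negative difference of responses. Otx2 fell by 2.10 after 96 h and by 5.54 after 48 h, and Sparcl1 and Msx1 rose after 96 h and lay near 0 after 48 h.

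Within 96 h + 2iL the 4 experiments did not look alike. Experiments 1 and 2 held the highest levels of T, Lefty1, Nanog, Esrrb, Tfcp2l1 and Cdh1, and experiments 3 and 4 the highest of Hes5, Pou3f2, Sox1, Crabp1, Dll1 and Msx1, as the values above show. Hoxb1 was highest in experiment 4 (91.5 CPM) and Otx2 in experiment 3 (223 CPM). Sp5, Nkd1, Axin2, Dusp4 and Stat3 varied less, by at most 2.14-fold between the highest and the lowest library of the group. The summed level of the 18 naive genes spanned 189 to 1110 CPM in 96 h + 2iL, against 156 to 469 CPM at 96 h, and that of the 21 neural progenitor genes in the files 889 to 2980 CPM in 96 h + 2iL, against 632 to 1970 CPM at 96 h. The summed level of the WNT targets spanned 1130 to 1200 CPM in 96 h + 2iL, against 381 to 617 CPM at 96 h. A sum follows its most abundant members and does not show that each target was even. The beta-catenin target T, for one, varied widely between experiments.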

How the data were processed

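Raw counts per gene of all 28 libraries were deposited by the authors, with a table of CPM for the series. In 28 of 28 columns that deposited CPM table equalled the CPM computed from the counts within 0.000001, and the table served no other purpose than this check and the naming of genes. The submitters' processing notes name bcl2fastq, STAR 2.6.0a, HTSeq and the build mm10, without a role or order for each, and the counting strand and any use of molecular identifiers are not given in the sources used here. Reads given to no gene were 60.8% to 64.1% of the reads listed in the 8 libraries and stayed out of totals and tests. Gene positions are from GENCODE M21 (mm10), and promoters from RefSeq (GRCm38.p6), where 25 of the 30 genes with the largest changes had an entry.

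Of 31053 genes, 11080 passed edgeR's filterByExpr with its minimum of 10 counts in a library and 15 over all libraries. A gene high in a single group can pass this filter through that group. Counts of lists with untested members are therefore descriptions only. A quasi-likelihood model with group and experiment as its terms was fitted to all 28 libraries after TMM scaling (edgeR 4.0.16, R 4.3.3), and p-values are two-sided and Benjamini-Hochberg adjusted over all genes tested. Standard errors were derived from each gene's F statistic (the size of the log2 fold change over the root of F) and are approximate at low counts. CPM values are TMM-scaled. Ratios of genes with 1 to 3 pooled counts in a group have an exact 95% interval that covers counting error only. The fit was also run on simulated data with known changes but no differences between experiments, so that run does not test the experiment block. No pair of replicates agreed within sampling noise (chi-square per gene 2.92 to 9.75 over 12 pairs).

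The block follows the experiment number in the titles. Correlations of the deviations from the group means of the 96 h + 2iL and 96 h libraries were 0.25, 0.21, 0.41 and 0.03 for experiments 1 to 4. No such correlation was computed between libraries of different experiments, so these values do not show the pairing in any experiment. Alternatives were no block, the 8 libraries alone, RLE size factors, unscaled totals, no filter, DESeq2 1.42.0, limma-voom (limma 3.58.1), and leaving out each library or experiment. Named are the 15 called genes that rose most and the 15 that fell most (a mean of at least 10 CPM in the higher group, no overlap between groups, Gm, mt-, Rik and pseudogene symbols passed over), the 10 largest differences of response each way, the 3 markers, and members of 26 gene lists. The lists are those printed in the plot of lists; Aldoa and Ddit3, members of the glycolysis and stress lists, were not analysed here. The markers, lists and tests were chosen with earlier results of these data known. The result of 1 gene is not reported here.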

Additional observations from a re-analysis of the deposited data

Results flagged for a closer look

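Groups of 4 libraries were checked for genes with values per library, gene counts, genes detected, reads aligned at several places and the mitochondrial share. By Dixon's criterion 13 of 114 had 1 library far from the other 3 (11.4%). For independent, normally spread values about 1 in 20 would do so. Low counts are skewed and genes share the same libraries, so the 11.4% cannot be read as an excess over that rate. Of these, 7 were the 96 h library of experiment 3, with 476 CPM for Dnmt3b, 31.3 for Fzd7, 53.8 for Hes5, 9.55 for Msx1, 40.4 for Nkd1, 6.95 for Stra6 and 6.51 for Zic1. The 96 h library of experiment 4 was apart for Cdx2 (1.21 CPM) and Eras (32.3 CPM), and the 96 h library of experiment 1 for Hoxb4 (2.74 CPM) and the mitochondrial share (1.99%). In 96 h + 2iL the library of experiment 4 was apart for Hoxb1 (91.5 CPM) and that of experiment 3 for Otx2 (223 CPM).

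The response to 2iL after 96 h differed from that after 48 h, by the interaction test of edgeR, for 28 of the genes named. Differences (log2, response after 96 h minus response after 48 h) were positive for Dll1 (4.09), Sparcl1 (3.99), Otx2 (3.44), Msx1 (3.38), Prmt8 (3.32), Crabp1 (3.12), Cdk5r2 (3.0), Tshz3 (2.96), Sall2 (2.89), Btbd17 (2.75), Pou3f1 (2.6), Hes6 (1.51), Lef1 (1.17), Dnmt3a (1.11), Sox3 (1.07), Slc2a1 (0.78) and Vim (0.75). They were negative for Ttbk1 (-5.05), Six3 (-4.37), Cldn3 (-4.31), Pdzrn4 (-3.82), Iglon5 (-3.79), Pllp (-3.63), Ephb1 (-3.15), Pdlim4 (-3.13), Cttnbp2 (-3.0), Hyal1 (-2.95) and Sox9 (-2.21). Of the 20 largest, Otx2 and Sall2 kept the call under every alternative run, and 11 lost it without some single library.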

How the results depend on the processing

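The 1339 calls of 96 h + 2iL against 96 h became 1024 with no replicate block, 1506 with the 8 libraries alone, 1344 with RLE size factors, 1317 with unscaled totals, 1502 with no filter, 1417 with DESeq2 and 1455 with limma-voom. No gene called turned its sign in any of these. All 1024 calls with no replicate block were among the 1339. Without single libraries or experiments the count was 656 to 1428, against 120 h it was 109 to 594, against 2iL 3923 to 4649, and for the difference of responses 24 to 233. The difference of responses gave 102 genes with no replicate block and 414 with no filter (39.6% of them positive, against 52.1%), and the 120 h comparison gave 621 with no filter. Cdx2 stayed between 6.66 and 7.93, Utf1 between -4.31 and -3.77 and Dusp6 between -3.21 and -2.61 (log2) when libraries or experiments were left out. The mitochondrial share differed by -0.458 to -0.345 percentage points without single libraries, and within experiments by -0.413 (exact sign-flip p = 0.125, the smallest that 4 pairs can give).

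Of 129 named genes called, 100 kept the call without any single library, 84 without any experiment and 83 under every alternative. Where values without single libraries are given, leaving out a whole experiment could raise the adjusted p of edgeR further. It reached 0.163 for Etv1, 0.149 for Fn1, 0.134 for Hoxb9 and 0.36 for Cdc20. Some list counts moved by over 1.5 times: naive genes higher were 12 with no filter, neural progenitor genes higher 8 with no filter and 3 with DESeq2, posterior homeobox genes 4 with the 8 libraries alone, streak genes 3 without experiment 1 or 2, and general pluripotency genes lower 4 without experiment 4. Over all alternatives, MEK and ERK targets lower were 4 to 10, LIF and STAT3 genes higher 4 to 9, adhesion genes higher 4 to 7 and lower 2 to 5, DNA methylation genes higher 0 to 1, germline genes lower 0 to 2, trophoblast genes lower 0 to 2 and fibroblast markers lower 0 to 1. The causes were not tested. Depth limits genes under about 10 counts, such as most Hox genes, and groups of 4 libraries limit every p.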

Other observations

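Metabolic and growth genes were mostly not called, and most of the calls were lower in 96 h + 2iL. Of 20 glycolysis genes tested 2 were higher in 96 h + 2iL and 4 lower, with a median log2 fold change of -0.25. Over the 19 alternatives run the number higher was 0 to 2, and under 2 in 12 of them, and the number lower was 2 to 5. Among them Pfkp (-0.91, adjusted p = 0.0206 in edgeR), a phosphofructokinase gene, lost its call in 5 of 8 fits that left out a single library (adjusted p up to 0.119). The glucose transporter gene Slc2a1 had 124, 125, 183 and 209 CPM in 96 h + 2iL, against 347, 318, 366 and 379 CPM at 96 h, without overlap (-1.16 ± 0.13). The lactate exporter gene Slc16a3 fell by 1.76 ± 0.22 on the log2 scale. Of 21 cholesterol biosynthesis genes 1 was higher (Ebp, 1.06 ± 0.21) and 7 lower, among them Fdps (-0.91 ± 0.14) and Sqle (-0.64 ± 0.14), with a median of -0.41, and the number lower was 3 to 10 over the alternatives. Of 16 p53 targets 1 was higher and 3 lower (0 to 4 over the alternatives), with a median of -0.32. The higher one was Cdkn1a, an inhibitor of cyclin-dependent kinases, with 861, 962, 439 and 531 CPM in 96 h + 2iL, against 381, 322, 260 and 276 CPM at 96 h (1.16 ± 0.18). Of 19 mitosis and proliferation genes 0 were higher and 2 lower in edgeR, with a median of -0.29. Of all genes tested 5.56% were higher and 6.53% were lower, which is the background for each list in this paragraph. The number called lower was 1 to 4 over the alternatives. Cdc20 (-0.40, adjusted p = 0.0409 in edgeR), an activator of the anaphase-promoting complex, lost its call in 7 of 8 fits that left out a single library (adjusted p up to 0.195). Its call was also lost without the experiment block (adjusted p = 0.0687). At an unadjusted p under 0.05 in edgeR, 11 of these 19 genes were lower and 0 higher. For the 21 cholesterol genes 13 were lower and 1 higher, for p53 targets 5 and 2, and for glycolysis genes 4 and 2. Over all 11080 genes tested, 2798 reached that level in either direction.

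Among the genes with the smallest p, 10 stand outside the lists and the naming rule and were chosen after their values were seen. Chd3, a chromatin remodeller of the NuRD complex, had 246, 343, 442 and 524 CPM in 96 h + 2iL, against 39.3, 39.0, 129 and 55.3 CPM at 96 h (2.64 ± 0.20, adjusted p = 4.92e-11). It also stood above 120 h, where it averaged 189 ± 88.8 CPM (SD, n = 4; log2 fold change 1.11, adjusted p = 0.000179). Ckb, the brain-type creatine kinase gene, had 256, 201, 224 and 174 CPM in 96 h + 2iL, against 84.0, 80.9, 76.4 and 91.3 CPM at 96 h (1.37 ± 0.14), and 1160 ± 129 CPM in 2iL. Of the 8 that fell, Tle4, a co-repressor gene, had 69.5, 72.7, 81.4 and 91.5 CPM in 96 h + 2iL, against 229, 237, 173 and 205 CPM at 96 h (-1.43 ± 0.14). Emb, an adhesion protein gene, had 43.5, 34.5, 42.2 and 30.9 CPM in 96 h + 2iL, against 203, 171, 120 and 170 CPM at 96 h (-2.13 ± 0.20), and 5.10 ± 1.56 CPM in 2iL. The other falls were Pdzd4 (-3.24), Tor3a (-3.16), Rasgrp2 (-3.14), Gng3 (-2.73), Nefh (-2.43) and Dab1 (-2.39).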
